A study of Mus musculus with 6 samples.

Results

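Complex I (NADH:ubiquinone oxidoreductase) subunits encoded in nuclear DNA were taken as every protein-coding gene whose symbol is Ndufa, Ndufb, Ndufc, Ndufs or Ndufv followed by a number, which left out the Ndufaf assembly factors. The rule found 37 genes of the 16289 in the table: 14 Ndufa, 10 Ndufb, 2 Ndufc, 8 Ndufs and 3 Ndufv. The samples were tibialis anterior, a fast limb muscle, from wildtype C57BL/6J males of 12 weeks whose muscle had been injected with glycerol and was taken 14 days later. Glycerol damages muscle fibres, and fat often accumulates in the muscle as it regenerates. All 6 mice had the injury; 3 had a control treatment (the glycerol group) and 3 had melatonin (the glycerol+melatonin group), with no uninjured group in the files used here. How much melatonin the mice received, by which route and when, the sources used here do not say. Tibialis anterior is the tissue label, which was followed; the extraction text speaks of longissimus dorsi, a back muscle.

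Complex I takes electrons from NADH, passes them along a flavin and iron-sulphur clusters to ubiquinone, and pumps protons across the inner mitochondrial membrane. The proton-pumping core of its membrane arm is encoded in mitochondrial DNA, while the nucleus encodes the core of the matrix arm and all accessory subunits, many of them small proteins needed for assembly and stability. Oxidative muscle fibres hold many mitochondria, so these genes are abundant in muscle. By function, 7 of the 37, all among the Ndufs and Ndufv genes, are core subunits. The other 30 are counted as accessory here. Among them, Ndufa4 keeps its complex I name although its protein is now placed in cytochrome c oxidase, and Ndufa4l2 is its hypoxia-induced paralog.

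All libraries held between 39310361 and 48879045 counts, and fast fibre markers were high in all 6, with summed levels of 105349 to 167772 CPM (counts per 1000000 counts, scaled by edgeR's TMM factors). Of 8 slow, oxidative fibre markers 6 had a log2 fold change above 0, with a median of 0.44 (0.15 after the length correction described below). The 12 fast fibre markers had a median of -0.26, with 5 above 0. After that correction their median was -0.26, with 0 above 0. The slow fibre markers summed to 3220 to 3478 CPM in glycerol and 3308 to 3955 CPM in glycerol+melatonin, ranges that overlap. Their mean deviation of log2 CPM from each gene's mean was 0.51, -1.27 and -0.01 in glycerol replicates 1 to 3. It was 0.48, 0.31 and -0.02 in glycerol+melatonin replicates 1 to 3. Glycerol replicate 2 was thus the lowest library by this measure, although its sum was the highest of its group. Every member had counts in every library. The summed level of 10 markers of fibro-adipogenic progenitors, the connective tissue cells from which muscle fat arises, was 7353 to 8383 CPM in glycerol and 5432 to 6491 CPM in glycerol+melatonin. Fat cell markers summed to 895 to 1049 CPM against 569 to 939 CPM, and 3 neutrophil markers to 3.20 to 4.30 CPM against 4.68 to 17.0 CPM. The part of these shifts in the results below was not tested, and in whole muscle a lower number of a cell type and less RNA per cell cannot be told apart.

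Most complex I genes had higher counts after melatonin, and the difference tended to be larger for members with shorter transcripts. The log2 fold change of glycerol+melatonin over glycerol was above 0 for 32 of 37 members, against 51.7% of all 16259 genes tested. Its median was 0.38 over the members, from -0.53 to 0.87, and 0.02 over all genes tested. None of the 37 passed edgeR's quasi-likelihood test at an adjusted p under 0.05, a threshold that 0.0738% of all genes tested (12 genes) passed. The lowest adjusted p of a member in edgeR was 0.140, for Ndufa3.

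At an unadjusted p under 0.05 in edgeR, 17 members were higher in glycerol+melatonin, where 10.1% of all genes tested were, and 0 were lower, where 9.39% were. The 3 libraries of each group did not overlap for 15 members that were higher, against 13.6% of all genes tested, and for 0 that were lower, against 12.5%. Of the 24 members with transcripts under 1000 bases, 15 were higher at that p and 12 were higher without overlap. Of all 954 tested protein-coding genes under 1000 bases, 326 and 341 were. Lower by these measures were 0 and 0 of those members, and 19 and 16 of those genes. DESeq2 called 3 members at an adjusted p under 0.05, all higher (2.14% of the genes it tested were called higher): Ndufa2 (adjusted p = 0.0415), Ndufa3 (0.0307) and Ndufa5 (0.0305). Limma-voom called 0. The count of 17 members fell to 9 without glycerol replicate 1 or without glycerol replicate 2, and to 10 without glycerol+melatonin replicate 1 or 2.

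**Figure D1:**
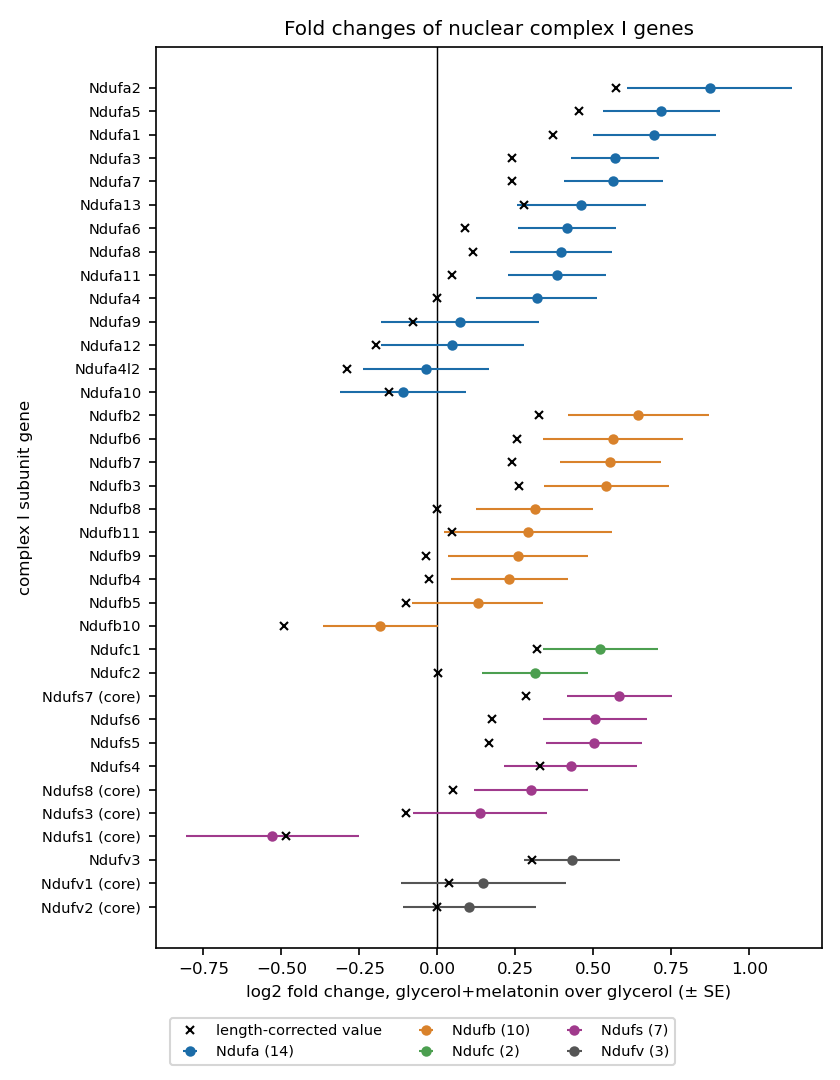
Log2 fold change of glycerol+melatonin over glycerol (x axis) for the nuclear complex I genes reported singly (rows; 36 of 37), as edgeR's estimate with its standard error (circle and bar, n = 3 against 3), coloured by name letter. Crosses give the value after correction for transcript length: 32 circles and 23 crosses lie above 0.

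The start-site sequences of 5 members, 1 for each name letter, are shown as examples of promoters from each group of subunits, from genes with log2 fold changes of 0.30 to 0.64. Promoter windows from RefSeq (GRCm38.p6; 250 bases before to 50 after the start) matched 32 members, and Ndufa2, Ndufa4l2, Ndufb9 and Ndufs1 were among those with no entry. Each line gives the 120 bases before the start, 5′ to 3′ on the gene's strand, from a member whose stretch lies in no GENCODE exon. Capitals mark a match, on either strand, to GGGCGG (SP1 and related factors; Ndufa3), CCAAT (NFY; Ndufb2, Ndufs8 and, as its complement, Ndufv3) or GCGCANGC (NRF1; Ndufc2). The stretches are chr7:3617253-3617372 (+), chr6:39592445-39592564 (+), chr7:97399883-97400002 (+), chr19:3912775-3912894 (-) and chr17:31519995-31520114 (+), in the order of the lines.
Ndufa3: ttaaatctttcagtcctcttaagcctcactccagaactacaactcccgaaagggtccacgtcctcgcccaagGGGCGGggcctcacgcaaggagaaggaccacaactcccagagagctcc
Ndufb2: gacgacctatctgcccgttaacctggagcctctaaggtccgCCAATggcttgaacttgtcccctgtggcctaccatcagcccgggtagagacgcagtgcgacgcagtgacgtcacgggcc
Ndufc2: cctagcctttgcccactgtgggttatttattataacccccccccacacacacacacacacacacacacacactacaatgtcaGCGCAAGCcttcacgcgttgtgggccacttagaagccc
Ndufs8: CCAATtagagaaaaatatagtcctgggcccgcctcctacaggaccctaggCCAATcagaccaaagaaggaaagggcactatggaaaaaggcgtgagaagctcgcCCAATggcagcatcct
Ndufv3: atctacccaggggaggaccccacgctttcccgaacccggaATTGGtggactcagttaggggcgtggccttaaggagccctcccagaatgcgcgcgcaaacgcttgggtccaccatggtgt

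Over the whole windows, searched on both strands with overlapping matches allowed, GCGCANGC stood in 9 of the 32 members (28.1%) and in 9.95% of all 32851 promoters in the table. The letters AAGATGG (YY1) stood in 7 members (21.9%) against 6.34%, and in each of the 7 the match began 22 to 38 bases after the start. CCGGAAG (GABPA and other ETS factors) stood in 4 members (12.5%) against 8.86%, and AAGGTCA (ERR factors) in 3 (9.38%) against 4.72%. GGGCGG stood in 43.8% against 35.7%, CCAAT in 31.2% against 37.4% and TATAAA (the TATA box) in 12.5% against 13.6%. The median log2 fold change of members with and without the letters was 0.40 and 0.43 for GCGCANGC, 0.50 and 0.38 for AAGATGG, and 0.43 and 0.41 for CCGGAAG. It was 0.50 and 0.40 for AAGGTCA, 0.41 and 0.40 for GGGCGG, 0.42 and 0.39 for CCAAT, and 0.57 and 0.35 for TATAAA. These medians rest on 3 to 14 members with a motif and were not tested. A match is a description of the letters and not a shown binding site. Positions are relative to the RefSeq start. For some members, such as Ndufs4, Ndufs6 and Ndufs7, all 120 bases before that start lie in annotated GENCODE exons. Their windows were kept in these counts.

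The Ndufa genes held the largest shifts. Of these 14 genes, none a core subunit, 12 had a log2 fold change above 0, with a median of 0.41. In edgeR 8 were higher at an unadjusted p under 0.05, against 10.1% of all genes tested. Groups did not overlap for 9, all higher, against 13.6% of all genes tested. Ndufa2, an accessory subunit of the NADH-binding module with a thioredoxin-like fold, had 71.6, 88.2 and 139 CPM in the glycerol libraries and 191, 210 and 145 CPM with melatonin. The groups did not overlap, but glycerol replicate 3 lay just under glycerol+melatonin replicate 3. Its log2 fold change was 0.87 ± 0.26 (SE), a fold of 1.83, with an adjusted p of 0.171 in edgeR.

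Ndufa5, an accessory subunit of the matrix arm, had 72.3, 91.3 and 105 CPM without melatonin against 159, 127 and 157 CPM with it, again with no overlap. Its log2 fold change was 0.72 ± 0.19, with an adjusted p of 0.145 in edgeR. Ndufa3, a small subunit of the membrane arm, had no overlap either, at 71.6, 75.3 and 81.3 CPM against 119, 113 and 107 CPM. Its log2 fold change was 0.57 ± 0.14. Ndufa1, another small membrane-arm subunit, encoded on the X chromosome, ran from 45.2 to 73.2 CPM in glycerol and from 87.8 to 103 CPM in glycerol+melatonin, with a log2 fold change of 0.69 ± 0.20 and an adjusted p of 0.161 in edgeR. Ndufa7, a matrix-arm subunit, had a log2 fold change of 0.56 ± 0.16.

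Further along the Ndufa genes, Ndufa6 (0.42), which binds the acyl carrier protein, and Ndufa8 (0.40) and Ndufa11 (0.38) of the membrane arm were higher with no overlap between groups. Ndufa13, also known as Grim19, did not overlap either, at 180 to 298 CPM against 309 to 349 CPM, with a log2 fold change of 0.46 ± 0.21. Of the other Ndufa genes over 1000 bases, 3 stood near 0: Ndufa9, at 0.07 ± 0.25, Ndufa12, at 0.05 ± 0.23, and Ndufa10, at -0.11 ± 0.20, the last with transcripts of 2020 bases and a value above 0 (0.08) under scaling by library size alone. The paralogs differed in level and shift. Ndufa4 had 172 to 224 CPM against 209 to 296 CPM and a log2 fold change of 0.32 ± 0.19, while Ndufa4l2 had 22.4 to 33.2 CPM against 24.9 to 34.0 CPM with overlap, and a log2 fold change of -0.04 ± 0.20 that was 0.18 under scaling by library size alone.

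The Ndufb genes, accessory subunits of the membrane arm, had a median log2 fold change of 0.30, with 9 of 10 above 0. At an unadjusted p under 0.05 in edgeR, 4 were higher (Ndufb2, Ndufb3, Ndufb6 and Ndufb7), against 10.1% of all genes tested. The groups were apart only for Ndufb7, while 13.6% of all genes tested were higher without overlap. Ndufb7, whose protein sits at the intermembrane side and holds paired cysteines, had 169, 153 and 186 CPM without melatonin against 276, 226 and 243 CPM with it. Its log2 fold change was 0.55 ± 0.16, with an adjusted p of 0.165 in edgeR. For Ndufb2 the values were 59.8, 66.1 and 94.4 CPM against 115, 137 and 91.7 CPM, so that glycerol+melatonin replicate 3 lay under glycerol replicate 3. The same library was the lowest of its group for Ndufb3 (0.54 ± 0.20) and for Ndufb6 (0.56 ± 0.22).

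Ndufb10, another intermembrane-side subunit with paired cysteines, went the other way from its neighbours of like length. It had 309, 228 and 262 CPM without melatonin against 272, 218 and 213 CPM with it, so the groups overlapped. Its log2 fold change was -0.18 ± 0.18, with an adjusted p of 0.602 in edgeR, and it was 0.02 under scaling by library size alone. The remaining Ndufb genes, Ndufb4, Ndufb5, Ndufb8, Ndufb9 and Ndufb11, had log2 fold changes from 0.13 to 0.31 and overlapping groups.

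Both Ndufc genes, small subunits of the membrane arm, had a log2 fold change above 0. Ndufc1 had 78.2, 77.7 and 76.0 CPM without melatonin against 121, 128 and 84.0 CPM with it. Its groups did not overlap, and its log2 fold change was 0.52 ± 0.18 with an adjusted p of 0.196 in edgeR. Ndufc2 overlapped, at 99.5 to 108 CPM against 106 to 151 CPM, with a log2 fold change of 0.31 ± 0.17.

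The Ndufs genes mix core and accessory subunits, and their 8 log2 fold changes had the widest range of the letters, from -0.53 to 0.58. Ndufs7, a core subunit that carries the last iron-sulphur cluster before ubiquinone, had 197, 208 and 203 CPM without melatonin against 348, 305 and 257 CPM with it. It was the only core gene whose groups did not overlap, with a log2 fold change of 0.58 ± 0.17 and an adjusted p of 0.164 in edgeR. The accessory Ndufs5 had 94.2, 98.2 and 94.4 CPM against 153, 135 and 118 CPM, and Ndufs6, which is needed to attach the NADH-binding module, had 83.3, 79.5 and 84.6 CPM against 129, 127 and 94.6 CPM. Neither overlapped, and both had a log2 fold change of 0.50. Ndufs4, a late-joining accessory subunit, overlapped, with a log2 fold change of 0.43 ± 0.21.

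The core gene with the longest transcript was not higher. Ndufs1, the largest nuclear-encoded core subunit and carrier of several iron-sulphur clusters, had 320, 316 and 383 CPM without melatonin against 335, 219 and 152 CPM with it. The groups overlapped through glycerol+melatonin replicate 1, which lay among the glycerol libraries, and the log2 fold change was -0.53 ± 0.28, with an adjusted p of 0.325 in edgeR.

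Other matrix-arm core genes overlapped as well. Ndufs3, next to the ubiquinone site, had 201, 206 and 252 CPM against 298, 246 and 180 CPM, a log2 fold change of 0.14 ± 0.21. Its glycerol+melatonin replicate 1 lay above all 3 glycerol libraries and replicate 3 below them. Ndufs8 had a log2 fold change of 0.30 ± 0.18. Ndufv1, which binds NADH and the flavin, had 142, 160 and 199 CPM against 211, 227 and 117 CPM, a log2 fold change of 0.15 ± 0.26. Ndufv2, its partner with an iron-sulphur cluster, had 322, 340 and 394 CPM against 487, 336 and 310 CPM, a log2 fold change of 0.10 ± 0.21. In both, glycerol+melatonin replicate 3 was the lowest of all 6 libraries. Ndufv3, the accessory member of the letter, was apart from them: it had 89.8, 100 and 96.2 CPM against 146, 116 and 124 CPM, with no overlap, a log2 fold change of 0.43 ± 0.15 and an adjusted p of 0.198 in edgeR.

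**Figure D2:**
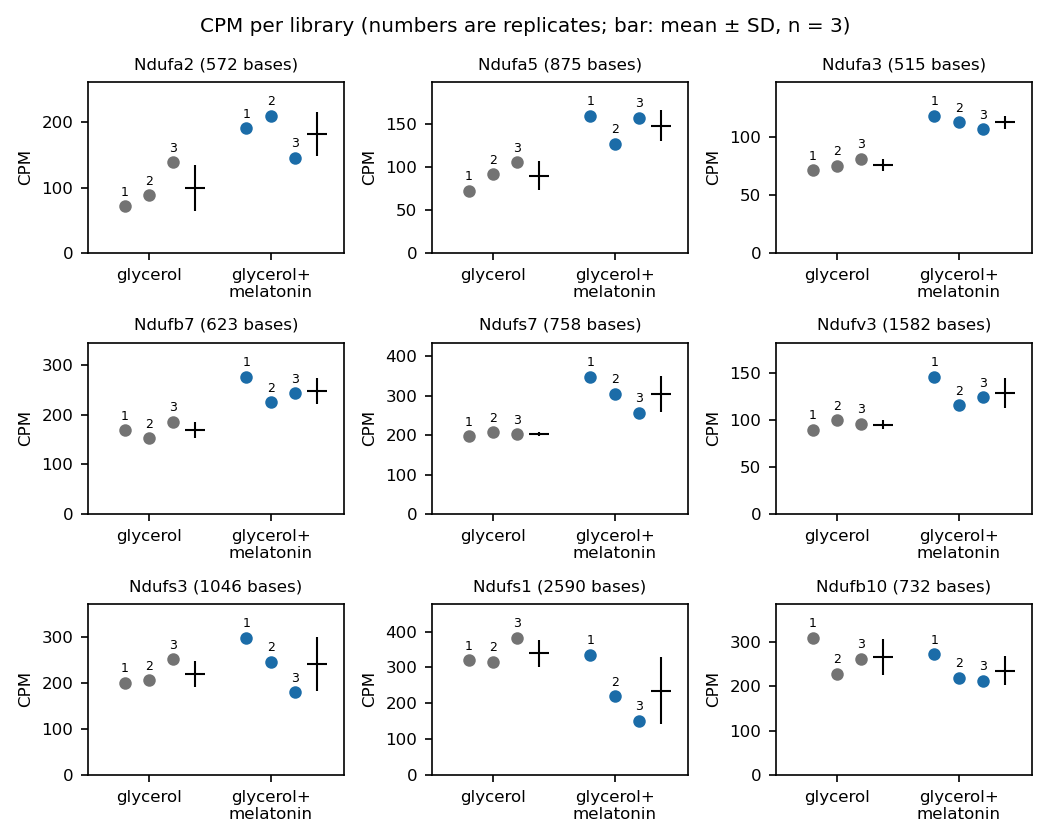
CPM (y axis, from 0) in each library for 9 complex I genes, with glycerol in grey and glycerol+melatonin in blue, replicate numbers over the points and the mean ± SD beside them (n = 3). Groups are apart for Ndufa2, Ndufa5, Ndufa3, Ndufb7, Ndufs7 and Ndufv3, and overlap for Ndufs3, Ndufs1 and Ndufb10, where glycerol+melatonin replicate 3 is the lowest library.

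By letter, the medians were 0.41 for Ndufa, 0.30 for Ndufb, 0.42 for Ndufc, 0.36 for Ndufs and 0.15 for Ndufv. By role, the 30 accessory genes had a median of 0.42, with 27 above 0, and the 7 core genes a median of 0.14, with 5 above 0. The core median was 0.31 without glycerol+melatonin replicate 3 and -0.04 without glycerol+melatonin replicate 1. These groups of genes also differed in transcript length, taken as the shortest best-supported coding transcript: median 718 bases for accessory and 1623 bases for core genes, and 735.5, 718, 966, 1014.5 and 1661 bases for Ndufa, Ndufb, Ndufc, Ndufs and Ndufv. The difference between the letters or roles was not tested.

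Length and shift went together among the members and in all genes. Over the 37 members, Spearman's rho of transcript length with log2 fold change was -0.63, and over the 30 accessory members it was -0.55. With the longest transcript of each gene in place of the shortest best-supported one, it was -0.41 over the 37 members. Over the 16230 tested genes with a length it was -0.33. These are descriptions across genes that share the same 6 libraries. The 24 members under 1000 bases had a median log2 fold change of 0.46, with 22 above 0, and the 13 longer members a median of 0.13, with 10 above 0. All 954 tested protein-coding genes under 1000 bases had a median of 0.39, with 796 above 0.

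Within a class of length, the members lay near the other genes. From 500 to under 750 bases, 14 members had a median log2 fold change of 0.46 and all 318 protein-coding genes a median of 0.43. From 750 to under 1000 bases, the medians were 0.35 for 8 members and 0.32 for 532 genes. From 1000 to under 1500 bases they were 0.13 for 6 members and 0.18 for 1500 genes, and from 1500 to under 2500 bases 0.13 for 6 members and 0.04 for 3448 genes. The 2 members under 500 bases, Ndufa1 and Ndufb2, had a median of 0.67 and their class of 104 genes one of 0.61. Ndufs1, alone of the members in the class of 2500 bases or more, stood at -0.53, where the class median was -0.10.

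**Figure D3:**
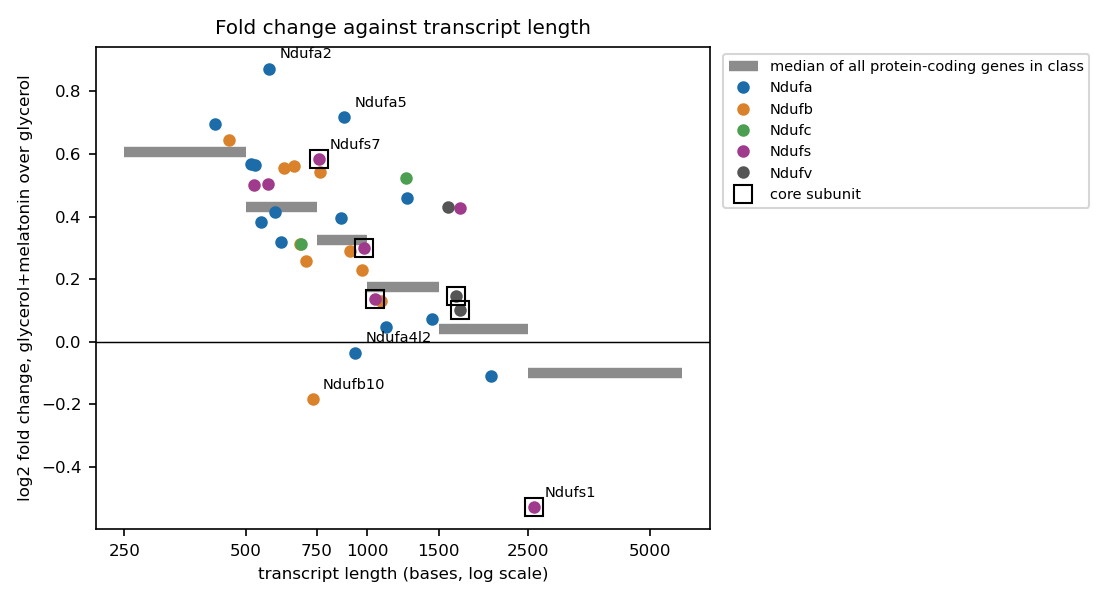
Log2 fold change of glycerol+melatonin over glycerol (y axis) against transcript length in bases (x axis, log scale) for 36 of the 37 complex I genes, coloured by letter, with core genes boxed. Grey bars are the medians of all tested protein-coding genes in each class of length, from 0.61 under 500 bases to -0.10 at 2500 bases or more; Ndufa2 and Ndufa5 lie above the bar of their class and Ndufb10 and Ndufs1 below.

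After each library's trend with transcript length over all genes was removed, the members' median log2 fold change was 0.05, with 23 of 37 above 0, beside 0.03 and 52.6% above 0 over all genes. Removing a trend with GC content as well gave 0.08, with 22 above 0. With length alone removed, the letters had medians of 0.10 for Ndufa, 0.02 for Ndufb, 0.16 for Ndufc, 0.11 for Ndufs and 0.04 for Ndufv. The 30 accessory genes had a median of 0.14, with 20 above 0, and the 7 core genes one of 0.00, with 3 above 0. In that fit 8.89% of all genes tested were higher and 7.72% lower at an unadjusted p under 0.05 in edgeR. Of the members 2 were higher, Ndufa2 (0.57 ± 0.22) and Ndufa5 (0.45 ± 0.16), and 1 was lower, Ndufb10 (-0.49 ± 0.19), shares no larger than those of all genes. Their adjusted p-values in edgeR were 0.267, 0.242 and 0.260. What lies behind the trend with length was not tested, and the correction takes out all of it.

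The members shared a pattern over single libraries that the groups did not follow throughout. As the mean deviation of log2 CPM from each gene's mean, the 37 members stood at -0.28, -0.19 and -0.01 in glycerol replicates 1 to 3 and at 0.36, 0.19 and -0.08 in glycerol+melatonin replicates 1 to 3. Glycerol+melatonin replicate 1 was the highest library for 27 of 37 members and glycerol replicate 1 the lowest for 20. Glycerol+melatonin replicate 3 was the lowest of its group for 31 members, and the lowest of all 6 libraries for 9.

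Other short genes did not drop in that library. The 930 other protein-coding genes under 1000 bases stood at -0.29, -0.28 and 0.01 without melatonin against 0.20, 0.19 and 0.17 with it. The 7 core genes stood at -0.15, -0.07 and 0.11 without melatonin against 0.36, 0.10 and -0.36 with it. After length correction the members stood at -0.08, -0.02 and -0.01 against 0.21, 0.07 and -0.17, so the 3 glycerol libraries lay inside the range of the glycerol+melatonin libraries. The median log2 fold change over the members was 0.28 without glycerol+melatonin replicate 1 and 0.46 without glycerol+melatonin replicate 3.

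Fast fibre markers were also lowest in glycerol+melatonin replicate 3, at a summed 105349 CPM, and its neutrophil markers were highest, at 17.0 CPM. Endothelial markers summed to 1214 CPM there and to 759 to 1027 CPM in the other 5 libraries. The part of muscle fibre content in the level of complex I genes in this library was not tested.

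**Figure D4:**
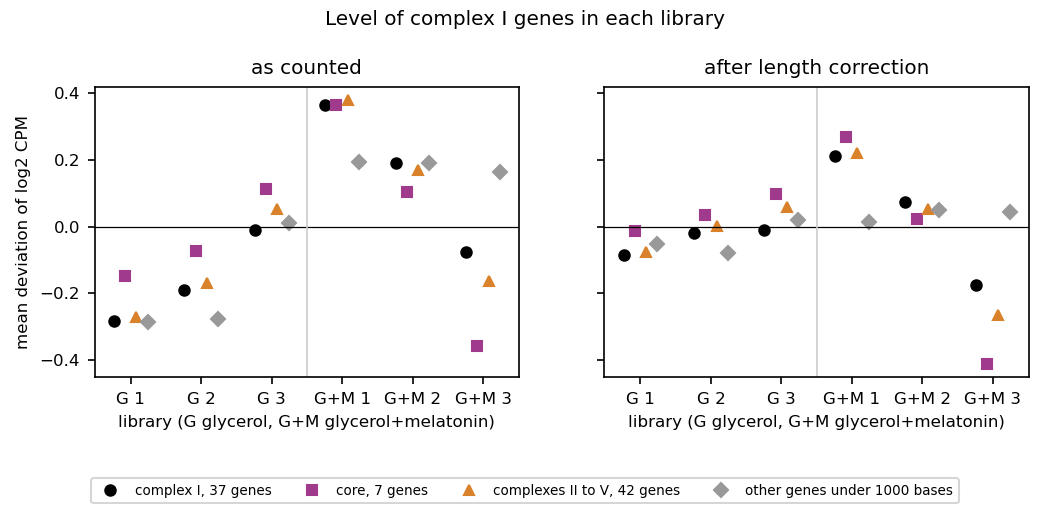
Mean deviation of log2 CPM from each gene's mean over the 6 libraries (y axis), as counted and after length correction, for the 37 complex I genes, the 7 core genes, 42 nuclear genes of complexes II to V and 930 other protein-coding genes under 1000 bases, by library (x axis). The complex I genes are highest in glycerol+melatonin replicate 1 (0.36) and stand at -0.08 in replicate 3 of that group, where the other short genes are at 0.17.

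Per unit of transcript length, in TPM (counts per transcript length, scaled to the same total in each library) over all libraries, the levels ran from 45.5 for Ndufa4l2 to 788 for Ndufb9. Ndufb8 (588) and Ndufa4 (561) followed Ndufb9 at the top, and Ndufv3 (105) and Ndufc1 (112) came after Ndufa4l2 at the bottom. These levels used the shortest best-supported transcript. The longest transcript was 2142 against 680 bases for Ndufb8 and 1232 against 610 bases for Ndufa4, with 704 bases by both for Ndufb9. The order by longest transcript was not worked out. In glycerol, Ndufb9 had 679 ± 229 TPM (SD, n = 3), Ndufb8 493 ± 78.8 TPM and Ndufa4 469 ± 116 TPM. Ndufb10 had 501 ± 79.5 TPM there, above the means of Ndufb8 and Ndufa4. Ndufb9 lay above Ndufb8 in every library. The order of Ndufb8 and Ndufa4 changed, at 414 against 350 TPM in glycerol replicate 1 and 571 against 582 TPM in glycerol replicate 3. Ndufv3, at 83.6 ± 12.9 TPM, and Ndufc1, at 85.5 ± 9.62 TPM, also changed order between libraries. Ndufa4l2, at 43.3 ± 12.3 TPM, lay below both in every library. Differences between genes were not tested. Among core genes, Ndufv1 (158) and Ndufs1 (161) stood low and Ndufs7 (497) high.

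Nuclear genes of the other respiratory complexes shifted like those of complex I. Of 42 tested genes of complexes II to V, 33 had a log2 fold change above 0, with a median of 0.34, a median length of 669.5 bases and 0.08 after length correction. At an unadjusted p under 0.05 in edgeR, 15 were higher and 1 lower, against 10.1% and 9.39% of all genes tested, and 0 passed adjustment. Of all 954 tested protein-coding genes under 1000 bases, 326 were higher and 19 lower at that p. After length correction 2 of the 42 were higher and 1 lower, against 8.89% and 7.72% of all genes tested. Without that correction, the smallest p-values among the 42 were those of Uqcr11 of complex III (0.59 ± 0.17), Cox6a1 of complex IV (0.52 ± 0.15) and Atp5j2 of the ATP synthase (0.63 ± 0.18). The 1 lower gene was Sdha, the long flavoprotein gene of complex II, at -0.63 ± 0.24, singled out after its value was seen. Their mean deviations by library, -0.27, -0.17 and 0.05 against 0.38, 0.17 and -0.16, ran beside those of the complex I genes.

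Complex I assembly factors, which have longer transcripts (median 1530 bases), were spread around 0. Of 18 tested, 9 had a log2 fold change above 0, with a median of 0.01. After length correction 7 were above 0, with a median of -0.11. In edgeR 3 were higher and 1 lower at an unadjusted p under 0.05, against 10.1% and 9.39% of all genes tested. Those 3 were Ndufaf8 (0.82 ± 0.21), Dmac1 (0.52 ± 0.17) and Ndufaf3 (0.55 ± 0.21), and the lower one was Tmem70 (-0.89 ± 0.37). None passed adjustment, with Ndufaf8 lowest at an adjusted p of 0.144 in edgeR. Ndufab1, the mitochondrial acyl carrier protein that is also a complex I subunit but falls outside the naming rule, had a log2 fold change of 0.19 ± 0.19.

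Of the 7 mitochondrially encoded subunits, 3 were in the table and were lower or level with melatonin, while mt-Nd2, mt-Nd4, mt-Nd5 and mt-Nd6 were not analysed here. The mt-Nd4l gene had 3239, 2091 and 996 CPM without melatonin against 780, 496 and 689 CPM with it. The groups did not overlap, and the log2 fold change was -1.69 ± 0.40, with an adjusted p of 0.137 in edgeR. The mt-Nd1 gene overlapped, at -0.63 ± 0.38, as did mt-Nd3, at -0.05 ± 0.24. After length correction the log2 fold changes were -2.06 for mt-Nd4l, -0.91 for mt-Nd1 and -0.41 for mt-Nd3. That correction used the annotated lengths of 297 bases for mt-Nd4l, 957 for mt-Nd1 and 348 for mt-Nd3. Whether the transcripts present have these lengths was not tested. Counts of these 3 genes divided by the summed counts of the 37 nuclear genes gave 6.68, 4.59 and 2.53 without melatonin against 2.33, 1.63 and 3.48 with it.

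That ratio ran from 2.53 to 6.68 within glycerol, and glycerol replicate 3 lay inside the glycerol+melatonin range. All mitochondrially encoded genes together took 17.9%, 14.8% and 10.3% of counts without melatonin, against 11.2%, 8.70% and 12.8% with it. With mitochondrial genes left out before scaling, the nuclear members' median log2 fold change was 0.38.

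Transcription factors and coactivators that drive mitochondrial genes did not shift upwards with the subunits. Of 13 such genes, with a median length of 3901 bases, 3 had a log2 fold change above 0, and the median was -0.43. After length correction the median was -0.35, again with 3 above 0. Ppargc1a, the coactivator PGC-1alpha, had 93.0, 181 and 108 CPM without melatonin against 81.3, 81.5 and 24.6 CPM with it, with no overlap. Its log2 fold change was -1.03 ± 0.44, with an adjusted p of 0.251 in edgeR. Tfb2m, a mitochondrial transcription factor, stood at -0.43 ± 0.18 with an adjusted p of 0.239 in edgeR, the lowest of the list. Esrrb, an orphan nuclear receptor, stood at -1.01 ± 0.46 with few counts and overlapping groups. It had 2.37, 2.74 and 1.05 CPM without melatonin against 1.64, 0.757 and 0.681 CPM with it. Of the 13 genes, 0 passed.

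Several members share exon bases with another gene, and the sources used here do not give the strand of counting, so reads of such pairs may be mixed. The largest share was that of Ndufb6, with 257 bases (39% of its exon bases) on the opposite strand from Smim27, whose log2 fold change was 1.34 ± 0.27 at 2.75 against 6.97 CPM. Ndufa13 shares 375 bases (30%) with Tssk6, which was not analysed here. Ndufb9 shares 201 bases (19.5%) with Gm49356 on the same strand, Ndufb11 117 bases (12.9%) with Rbm10, Ndufb5 616 bases (12.3%) with Mrpl47 and Ndufa2 66 bases (11.5%) with Tmco6. Tmco6 stood at 8.22 and 9.09 CPM in the groups, beside 99.4 and 182 CPM for Ndufa2. Reads of Ndufb4 may also match the pseudogene Ndufb4c, which had 5.68 and 7.08 CPM.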

How the data were processed

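The authors deposited a table of raw read counts per Ensembl gene for 6 libraries, 3 per group; each column was matched to a sample by its name. Per the submitters' processing notes, reads were handled with HISAT2 2.0, StringTie 1.3.3b, Trimmomatic 0.36, FastQC 0.11.2, DESeq2 1.12.4 and bedtools 2.26.0 on build mm10. Which of them counted, on which annotation and strand setting, the sources used here do not say. Symbols, types and lengths came from GENCODE M21 (GRCm38, the assembly of mm10), and 99.8% of genes had a length. Replicates are called biological in the series' text, and each counts as 1 mouse.

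The main test was edgeR 4.0.16 (R 4.3.3) with TMM factors and filterByExpr, which kept 16259 genes and all 37 members, with no covariate. P-values were adjusted by Benjamini-Hochberg over all genes tested, at a threshold of 0.05. The SE is the log2 fold change divided by the square root of its F statistic. TPM used counts per transcript length. For the length correction, a spline with 4 degrees of freedom on log2 transcript length was fitted per library. It was fitted to the deviation of log2 CPM (prior count 2) from each gene's mean, for genes with a mean log2 CPM above 0. The fitted trend was entered as an offset. Limma 3.58.1 (voom) and DESeq2 1.42.0 were alternatives. The edgeR step was tested on simulated data. At these depths the spread between mice, not counting error, set the precision.

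The members and gene lists were chosen with earlier results of these data known. Genes were named by rule: members passing the test, the 3 smallest p-values of each letter, core genes, members below 0, the 3 highest and 3 lowest by TPM, paralogs and overlapping members; in the other lists the 3 smallest p-values, all mitochondrially encoded subunits and Ndufab1. Other members were named for completeness after their values were seen. Of the 37, 36 are reported singly here; the other is kept in the fits and group counts.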

Additional observations from a re-analysis of the deposited data

How the results depend on the processing

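Over 18 alternatives to the fit, 602 of 648 member fold changes (36 members) kept their direction and side of the threshold, 43 changed sign, and 3 became calls (in DESeq2). No sign change occurred for 21 members; 15 had at least 1. No member passed at 0.05 in edgeR or limma-voom under any alternative, while DESeq2 called 3. At an adjusted p under 0.1, 0 members passed in the main edgeR fit. Without glycerol replicate 3 the lowest adjusted p of a member in edgeR was 0.070, under that looser threshold. The number of genes passing over the table was 744 in DESeq2 and 6 to 27 with a library left out. Library size alone moved the median of all genes to 0.23 and that of the members to 0.59; Ndufa10 became 0.083, Ndufa4l2 0.18 and Ndufb10 0.020. With upper quartile factors Ndufa4l2 became 2.22e-05. The members' median was 0.051 after correction for transcript length, 0.078 with GC content as well and 0.17 for the longest transcript (chosen after seeing the data); at an unadjusted p under 0.05, 2, 4 and 4 members were higher and 1 lower in each. Sign changes under length alone were Ndufa12 -0.20, Ndufa4 -0.00033, Ndufa9 -0.078, Ndufb4 -0.026, Ndufb5 -0.10, Ndufb8 -0.0021, Ndufb9 -0.037, Ndufs3 -0.099 and Ndufv2 -0.0017. With GC content they were Ndufa11 -0.035, Ndufa12 -0.17, Ndufa9 -0.024, Ndufb4 -0.0078, Ndufb5 -0.042, Ndufb8 -0.037, Ndufb9 -0.070, Ndufs3 -0.11, Ndufs8 -0.015 and Ndufv1 -0.013. For the longest transcript they were Ndufa12 -0.17, Ndufa9 -0.12, Ndufb4 -0.041, Ndufb9 -0.035, Ndufs3 -0.12, Ndufv1 -0.0097 and Ndufv2 -0.051. With each library left out in turn, 9 to 22 members were higher and 0 to 1 lower at that p, the median ran from 0.28 to 0.46, and these changed sign: Ndufa10 (-0.32 to 0.036), Ndufa12 (-0.11 to 0.21), Ndufa4l2 (-0.19 to 0.076), Ndufa9 (-0.10 to 0.28), Ndufb5 (-0.025 to 0.31), Ndufs3 (-0.043 to 0.31), Ndufv1 (-0.026 to 0.40) and Ndufv2 (-0.12 to 0.23). The cause of these changes was not tested. Same-numbered libraries did not deviate together (correlations -0.01, -0.01 and -0.05), so the numbers were not taken as pairs; with a replicate block the median was 0.38, 12 members were higher at an unadjusted p under 0.05, and 0 genes of the table passed. With Ndufab1 in place of Ndufa4 and Ndufa4l2 the median was 0.39.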

Other observations

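Ndufb1-ps, which follows the Ndufb naming but is annotated as non-coding in GENCODE M21, fell outside the rule. It had 38.3, 48.8 and 58.3 CPM in glycerol and 88.6, 85.3 and 56.9 CPM in glycerol+melatonin. Glycerol+melatonin replicate 3 lay among the glycerol libraries, as it did for Ndufb2, Ndufb3 and Ndufb6. The log2 fold change was 0.67 ± 0.22, with an adjusted p of 0.187 in edgeR, and 0.40 after length correction.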
